A study of Mus musculus with 9 samples.

Results

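The genes described here write, erase and read histone methylation: subunits of the Polycomb repressive complexes PRC2 and PRC1, lysine methyltransferases, lysine demethylases, and the O-GlcNAc transferase Ogt. They were a named list of 41 genes, taken by symbol, and the list was made with earlier results of these data known. All 41 were found once each among the 55487 genes of the deposited table. RNA was sequenced from whole retina of mice at postnatal day 21 (P21) on the C57 BL/6J strain, in 3 libraries for each of 3 genotypes, 9 libraries in all. Tet tcKO retinas were homozygous for floxed Tet1, Tet2 and Tet3, the enzymes that oxidise 5-methylcytosine, which were deleted in retinal progenitors by the Chx10::Cre-GFP transgene. The tHet retinas carried the same transgene with 1 floxed copy of each Tet gene, and the Cre- retinas, labelled WT, carried no transgene. The transgene is known to be mosaic, so both Cre+ genotypes came from in-crosses that kept 2 copies of it, whereas Cre- animals came from other breeders. A difference from Cre- can therefore not be told apart from one of breeding line. Each library held the retinas of 2 animals, so p-values measure the spread between such pools.

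Histone methylation works by position. PRC2, built from Ezh1 or Ezh2 with Eed and Suz12, methylates lysine 27 of histone H3, a mark of silenced developmental genes, and PRC1 ubiquitinates histone H2A at many of the same genes. The MLL and SET1 enzymes (Kmt2a to Kmt2d, Setd1a and Setd1b) methylate lysine 4 at promoters and enhancers, Setd2 and Nsd1 methylate lysine 36 and Dot1l lysine 79 in transcribed genes, and the Ehmt, Suv39h and Setdb1 enzymes methylate lysine 9 in silent chromatin. The list also holds demethylases of lysines 4, 9, 27 and 36. In the retina, the compact nuclei of mouse rods are known for an unusual arrangement of silent chromatin, and loss of PRC2 or of lysine 27 demethylases is known to disturb retinal development.

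The libraries held 9627927 to 21108256 reads on genes, and 1 read was worth 0.0474 to 0.104 CPM (reads on a gene scaled to a common library total, the deposited unit). Tet3 transcript, at 155 to 288 CPM in the 6 control libraries, was at 99.2 to 152 CPM in Tet tcKO (log2 fold change [log2FC] -0.99 ± 0.25 standard error [SE] versus Cre-, limma adjusted p = 0.017). Tet1 and Tet2 were not lower in Tet tcKO (log2FC 0.22 and 0.25 versus Cre-), but gene-level counts also hold exons outside the floxed parts and do not check those deletions. One ribosomal RNA gene, CT010467.1, took 28.7% of the reads of Tet tcKO library 3 and 3.72% of tHet library 3, against at most 0.226% in the others. CPM was deposited against the plain total, so every other gene of Tet tcKO library 3 is set lower by that share: 39 of the 41 genes had their lowest Tet tcKO value in that library. Rod markers summed to 28625 to 39484 CPM in control libraries and 3312 to 11283 in Tet tcKO, and cone markers to 442 to 577 and 1093 to 1636. Of the 8 cone markers, 7 were higher in both Tet tcKO comparisons. The other 1, Opn1mw, had a log2FC of -0.07 versus Cre- and -0.38 versus tHet. Muller glia markers summed to 1248 to 1766 CPM in controls and 628 to 986 in Tet tcKO, and immature neuron markers to 150 to 263 and 303 to 457. The 5 Muller glia markers did not move alike, with 4 lower and 1 higher in each comparison. Their log2FC ran from -1.64 to 0.12 versus Cre- (median -0.37) and from -1.47 to 0.44 versus tHet (median -0.20). The part of these shifts in the values below was not tested, and in whole tissue fewer cells of a type and less RNA per cell cannot be told apart.

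All 41 genes were transcribed in P21 retina. Their levels ran from 1.18 CPM (Phf19, Cre- library 1) to 862 CPM (Kmt2c, tHet library 2), with 36 of 41 at 10 CPM or more in every library, and all 41 passed the filter on low values. Set per kilobase (kb) of merged exon length, which 40 of the genes had in GENCODE M21 and which spanned 3.24 to 20.3 kb, the highest in Cre- were the PRC2 subunit Suz12 (51.6 CPM per kb), the lysine 9 and 36 demethylase Kdm4c (49.0 CPM per kb) and the PRC1 subunit Bmi1 (39.4 CPM per kb). Suz12 and Kdm4c did not differ beyond their SDs of 4.82 and 8.38 CPM per kb. The 2 PRC2 enzymes were close, Ezh1 at 10.4 CPM per kb and Ezh2 at 9.37 CPM per kb, although Ezh2 is best known from dividing cells. The E3 ligase Rnf2 was at 16.0 CPM per kb against 4.19 CPM per kb for its paralog Ring1. Lowest were the PRC1 chromodomain protein Cbx2 (0.769 CPM per kb) and the PRC2 accessory protein Phf19 (0.353 CPM per kb).

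**Figure D1:**
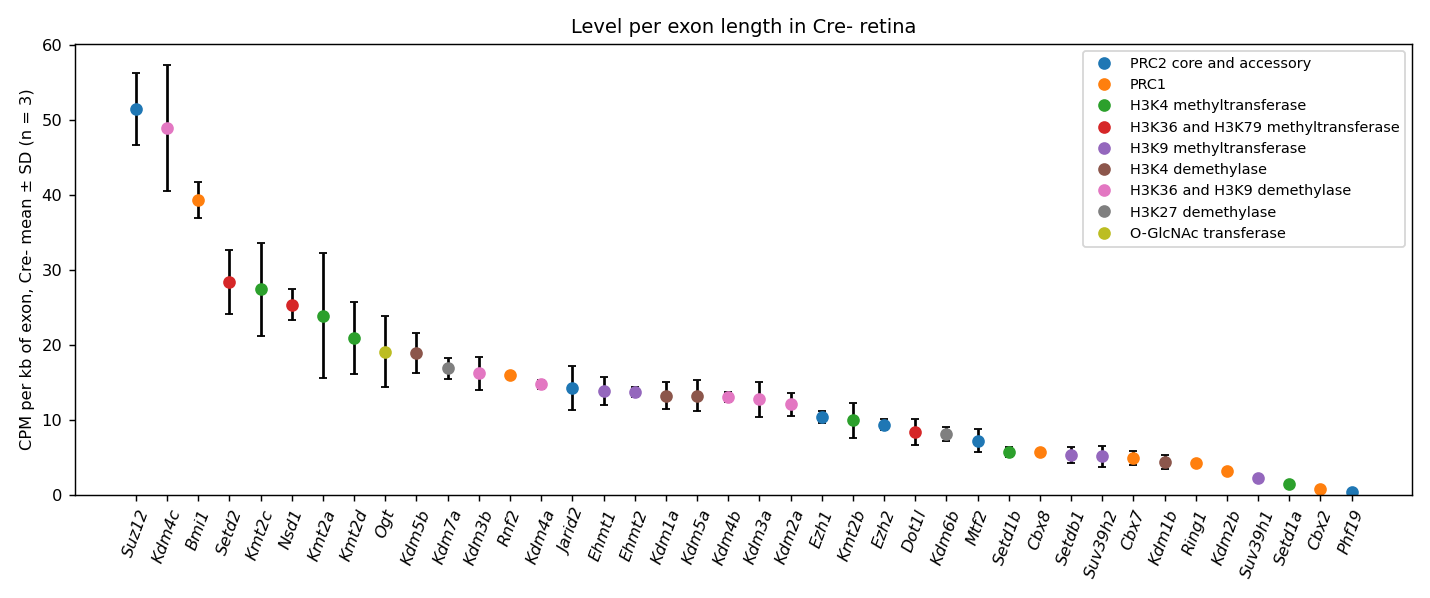
Level of 40 of the 41 genes in Cre- retina, as mean CPM per kb of exon with SD (n = 3 libraries), in descending order and coloured by role. Suz12, Kdm4c and Bmi1 lie above 39 CPM per kb, whereas Cbx2 and Phf19 lie under 1 CPM per kb.

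None of the 41 genes passed a threshold in any of the 3 comparisons with limma on log2(CPM + 0.5), the values taken as deposited. At the stricter rule, an adjusted p under 0.01 together with a log2FC of 1 or more in size, 3.60% of the 21330 genes tested were called in Tet tcKO versus Cre-, 3.00% in Tet tcKO versus tHet and 0.0422% in tHet versus Cre-. With an adjusted p under 0.05 and no limit on size, 6.50%, 5.95% and 0.0938% of genes were called, again with 0 of the 41. Unadjusted p was under 0.05 for 3 of the 41 genes versus Cre-, all higher in Tet tcKO, for 4 versus tHet, 2 higher and 2 lower, and for 0 between tHet and Cre-, beside 16.1% and 17.5% of all genes in the Tet tcKO comparisons. In edgeR it was 8 versus Cre- and 5 versus tHet (20.8% and 22.3% of all genes), in DESeq2 9 and 5 (20.8% and 22.1%), and in limma without CT010467.1 in the totals 10 and 6 (23.2% and 24.3%). The median log2FC of the 41 genes was -0.01 versus Cre- and -0.05 versus tHet, beside 0.00 and -0.06 over all genes tested. Single genes ran from -0.43 (Suz12) to 0.72 (Phf19) versus Cre- and from -0.64 (Kmt2c) to 0.59 (Kdm6b) versus tHet.

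With values as deposited, the SE of a log2FC was 0.20 to 0.34, with a median of 0.23. The 95% interval lay wholly between -1 and 1 for 37 of 41 genes versus Cre- and for 36 of 41 versus tHet, so a 2-fold change lay outside the interval for most of the list. Smaller changes could not be told from the spread of 3 libraries a group for most genes in this fit. That spread includes the lowered values of Tet tcKO library 3. With CT010467.1 left out of the totals, an alternative described below, the SE versus Cre- ran from 0.120 (Rnf2) to 0.295 (Phf19). As deposited, intervals reached beyond 1 versus Cre- for Phf19, Kdm2b, Kdm6b and Ogt.

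**Figure D2:**
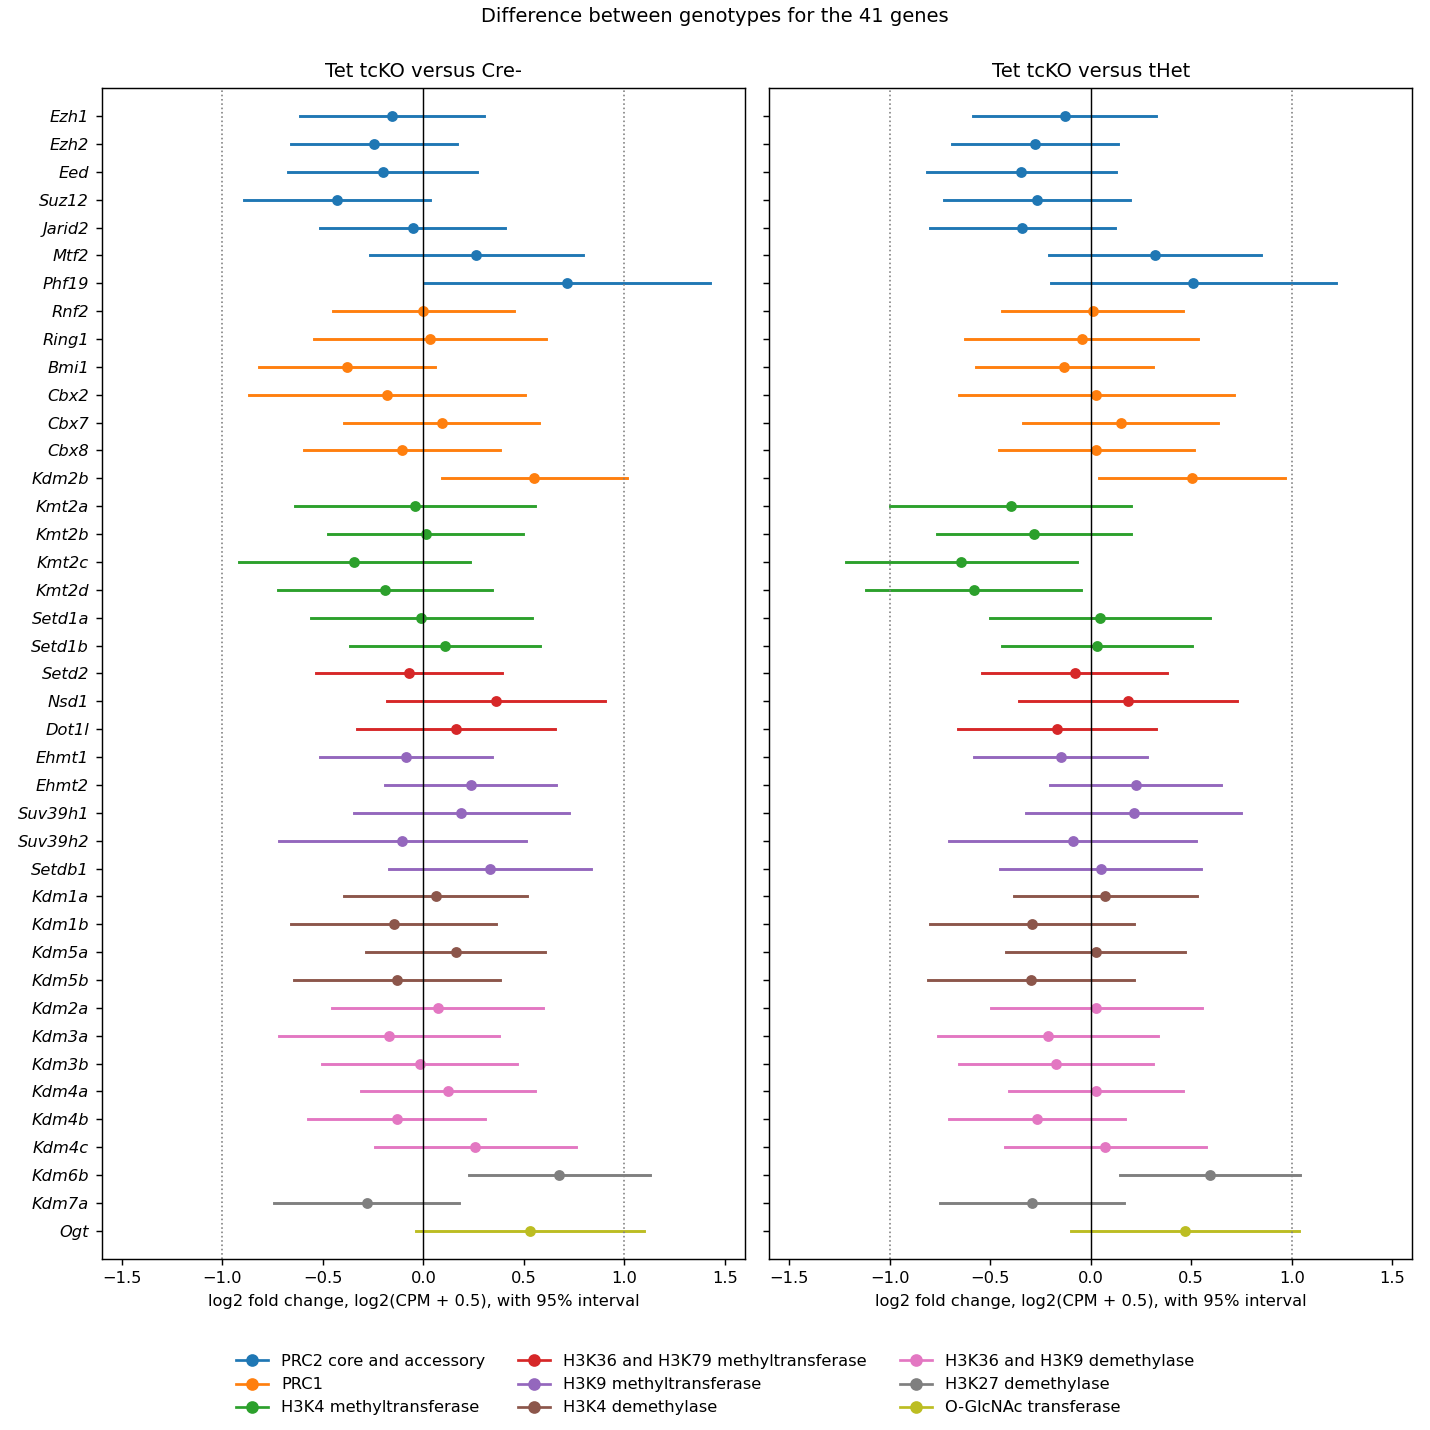
Log2FC of each of the 41 genes in Tet tcKO versus Cre- (left) and versus tHet (right), on the log2(CPM + 0.5) scale, with 95% intervals and colour by role; dotted lines mark -1 and 1. Kdm6b and Kdm2b are the genes whose intervals lie above 0 in both panels, and those of Kmt2c and Kmt2d lie below 0 versus tHet.

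**Figure D3:**
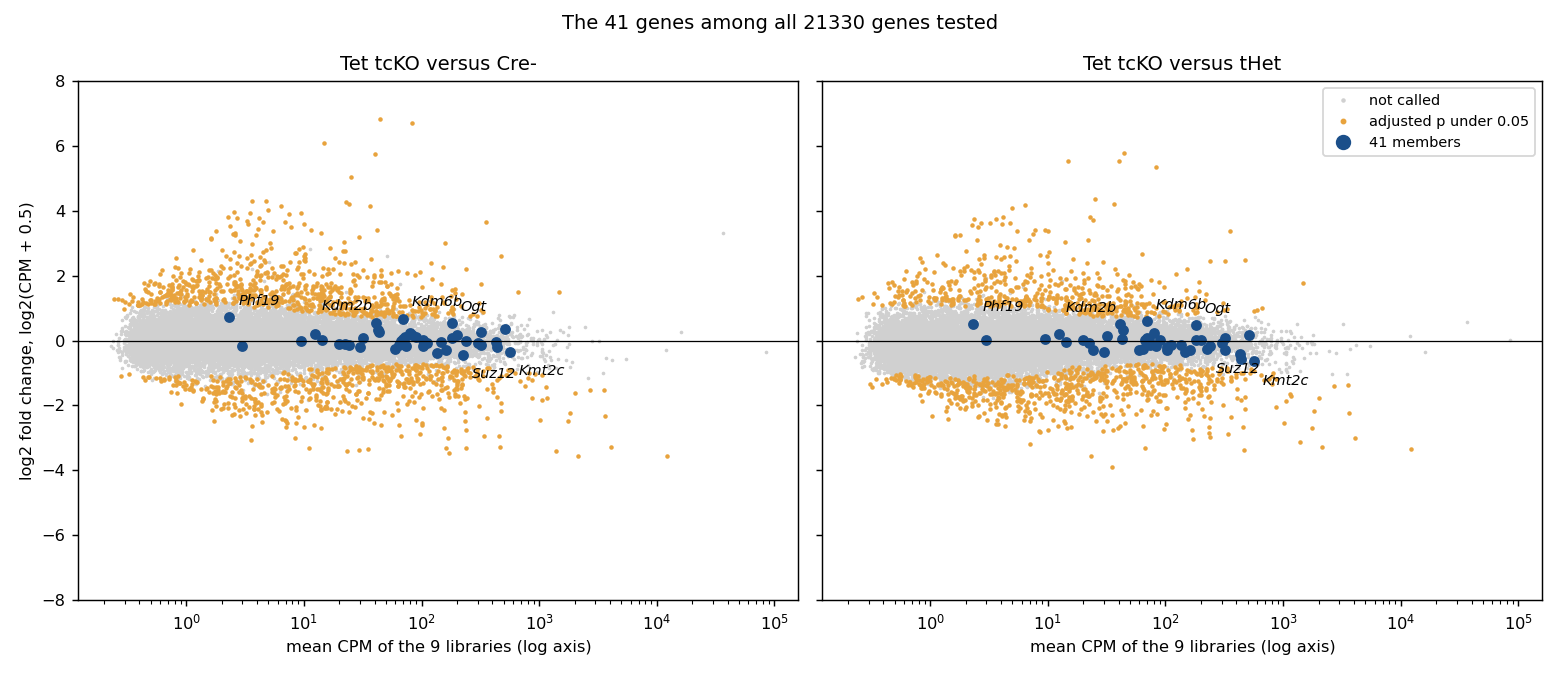
Log2FC against the mean CPM of the 9 libraries (log axis) for all 21330 genes tested, with genes at adjusted p under 0.05 in orange and the 41 genes in blue. The blue points lie between -0.64 and 0.72, inside the band of genes that were not called.

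Among the demethylases of lysine 27, Kdm6b (also called JMJD3) removes the PRC2 mark and Kdm7a removes di-methyl marks from lysines 9 and 27. Kdm6b lies on chromosome 11 of GRCm38 (mm10), from 69398508 to 69413675 on the minus strand. It was at 52.5, 52.6 and 63.7 CPM in the Cre- libraries, 56.5, 63.5 and 58.3 CPM in tHet, and 108, 96.9 and 68.9 CPM in Tet tcKO. Every Tet tcKO library was above every control library, and the lowest of them was library 3. Its log2FC was 0.68 ± 0.21 (SE) versus Cre- with an adjusted p of 0.068, and 0.59 ± 0.21 versus tHet with an adjusted p of 0.13. Kdm6bos, an antisense gene that overlaps its exons, was at 0.0589 to 0.593 CPM, so reads of that gene were few. Kdm7a was at 139, 163 and 119 CPM in Tet tcKO and 136 to 214 CPM in the controls, with overlap between the groups and a log2FC of -0.28 versus Cre-. The ratio of Kdm6b to Kdm7a in the same library, which no scaling changes, was 0.578 to 0.782 in Tet tcKO and 0.288 to 0.428 in the controls.

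Kdm2b belongs to a variant PRC1 that it brings to CpG islands through a domain that binds unmethylated CpG, and it also demethylates lysine 36. It lies on chromosome 5, from 122870665 to 122989823 on the minus strand. It was at 29.9, 35.4 and 38.8 CPM in Cre-, 36.1, 34.3 and 37.0 CPM in tHet, and 62.5, 53.6 and 39.2 CPM in Tet tcKO. Again every Tet tcKO library was above every control library, but library 3, at 39.2 CPM, was close to the highest control at 38.8 CPM. Its log2FC was 0.55 ± 0.22 (SE) versus Cre- with an adjusted p of 0.18, and 0.50 ± 0.22 versus tHet with an adjusted p of 0.23. Exons of 3 other annotated genes overlap those of Kdm2b. Gm44574 was listed at 0 in all libraries, A930024E05Rik was at 5.78 to 12.1 CPM and Rnf34 at 19.7 to 31.1 CPM, and in both the Tet tcKO libraries overlapped the controls.

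The calls for these 2 genes differed between settings. With CT010467.1 left out of the totals, an alternative chosen after its share was seen, Kdm6b in Tet tcKO library 3 was at 96.7 CPM and Kdm2b at 55.0 CPM, near the other Tet tcKO libraries. The median log2FC over all genes tested was then 0.14 versus Cre- and 0.07 versus tHet, and its calls were 1598 higher and 600 lower versus Cre-, against 752 higher and 635 lower as deposited. Kdm6b then differed by a log2FC of 0.84 ± 0.13 (SE) versus Cre- (limma adjusted p = 0.0016) and 0.74 ± 0.13 versus tHet (adjusted p = 0.0042). Kdm2b differed by 0.71 ± 0.14 (adjusted p = 0.0068) and 0.65 ± 0.14 (adjusted p = 0.014). These were the called members, 2 of 41 in each comparison, where 10.2% and 8.90% of all genes tested were called. The same 2 genes were called with TMM scaling in limma (9.24% and 8.50% of all genes), in edgeR's quasi-likelihood test on the reads recovered from CPM (8.99% and 7.84%), and without Tet tcKO library 3 (6.47% and 5.57%). DESeq2, which called 11.6% and 11.1% of all genes, added Kmt2c and Kmt2d as lower in Tet tcKO versus tHet. In each of these settings and in both comparisons, the share of the 41 genes called was under that of all genes. As a share of the summed CPM of the 41 genes, which no scaling changes, Kdm6b was 1.52% to 1.88% in Tet tcKO and 0.842% to 1.20% in the controls, and Kdm2b was 0.843% to 1.08% and 0.483% to 0.761%. On this measure 8 of the 41 genes lay above all controls (also Phf19, Mtf2, Nsd1, Setdb1, Kdm4c and Ogt) and 1 below, Kmt2c. Over all genes tested, scaled by the same sum, 8.57% lay above and 6.03% below. The ratio of Kdm2b to its paralog Kdm2a overlapped, at 0.251 to 0.313 in Tet tcKO and 0.139 to 0.300 in the controls.

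**Figure D4:**
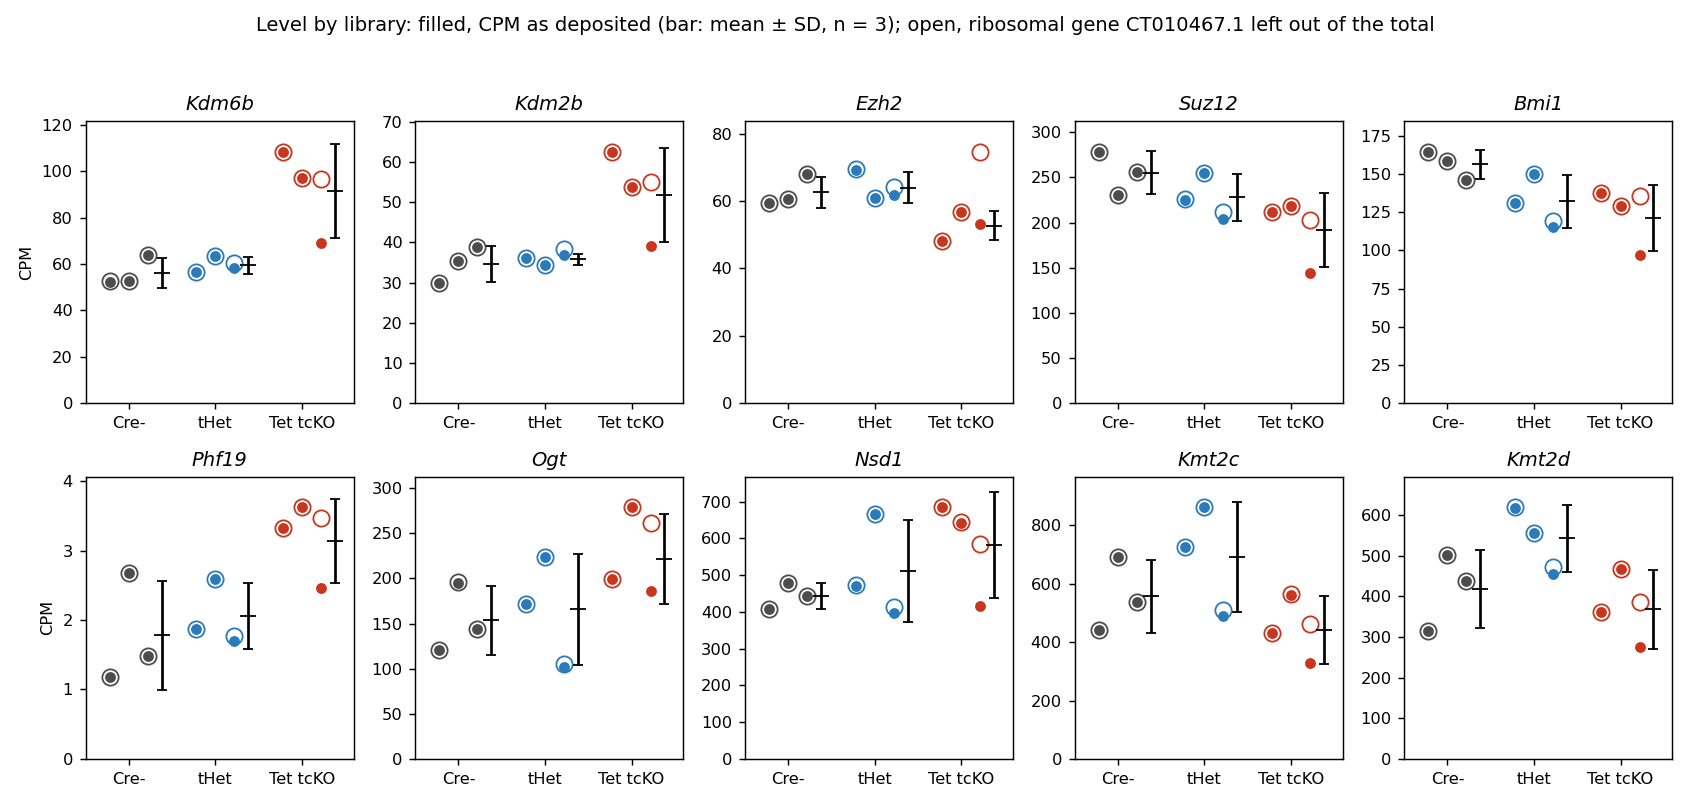
CPM of 10 of the genes in each library, with filled points for the values as deposited, bars for their mean ± SD (n = 3) and open circles for CPM with CT010467.1 left out of the totals. Only tHet library 3 and Tet tcKO library 3 shift visibly between both, and the open circles of Kdm6b and Kdm2b lie together in Tet tcKO, above all controls.

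The core of PRC2 lay below or within the controls. Ezh2, the methyltransferase, on chromosome 6 from 47530139 to 47595341 on the minus strand, was at 59.3, 60.5 and 67.9 CPM in Cre-, 69.2, 60.9 and 61.9 CPM in tHet, and 48.1, 56.8 and 53.2 CPM in Tet tcKO. It was the 1 gene of the list with every Tet tcKO library below every control library, and its log2FC was -0.25 ± 0.20 (SE) versus Cre- with an adjusted p of 0.68. That separation did not hold with CT010467.1 left out, when Tet tcKO library 3 was at 74.7 CPM and the highest of all 9. As deposited, 2 of the 41 genes lay wholly above the controls and 1 wholly below, beside 5.32% and 4.82% of all genes tested. After TMM scaling 3 lay above (Kdm6b, Kdm2b and Phf19) and 1 below (Suz12), beside 8.57% and 6.96% of all genes. With CT010467.1 left out, 6 lay above (Kdm6b, Kdm2b, Phf19, Ehmt2, Kdm4c and Kdm5a) and 0 below, beside 13.8% and 4.37% of all genes.

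Suz12, which holds PRC2 together, was at 278, 231 and 256 CPM in Cre-, 225, 255 and 203 CPM in tHet, and 212, 219 and 144 CPM in Tet tcKO. All Tet tcKO libraries lay below the Cre- libraries and overlapped those of tHet, with a log2FC of -0.43 ± 0.22 (SE) versus Cre- (adjusted p = 0.36) and -0.27 versus tHet. With CT010467.1 left out, Suz12 in Tet tcKO library 3 was at 203 CPM. Its log2FC was then -0.27 ± 0.13 versus Cre- (limma adjusted p = 0.25) and -0.12 versus tHet. Of the other subunits, with values as deposited, Ezh1 had a log2FC of -0.16 versus Cre- and Eed, which binds the methyl mark, -0.20. Jarid2, which guides PRC2 to its targets, had -0.05, and the accessory proteins Mtf2 and Phf19 had 0.26 and 0.72. Phf19 was at 2.47 to 3.62 CPM in Tet tcKO and 1.18 to 2.67 CPM in the controls, with overlap. The ratio of Ezh2 to Ezh1 in the same library was 0.591 to 0.982 in Tet tcKO and 0.700 to 1.01 in the controls, so the balance of both enzymes did not separate the genotypes.

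Within PRC1, Bmi1, the ring-finger partner of Rnf2, was at 165, 159 and 146 CPM in Cre-, 131, 150 and 115 CPM in tHet, and 138, 129 and 96.8 CPM in Tet tcKO. Its Tet tcKO libraries lay below those of Cre- and overlapped those of tHet (log2FC -0.38 ± 0.21 SE, adjusted p = 0.42, and -0.13). With CT010467.1 left out, Bmi1 in Tet tcKO library 3 was at 136 CPM. Its log2FC was then -0.22 ± 0.13 versus Cre- (limma adjusted p = 0.34) and 0.01 versus tHet. As deposited, the ligase Rnf2 had a log2FC of 0.00 versus Cre-, with 48.7 to 78.1 CPM in Tet tcKO around the 62.3 to 71.5 CPM of the controls. Its paralog Ring1 had 0.03, and the chromodomain proteins Cbx2, Cbx7 and Cbx8, which read methylated lysine 27, had -0.18, 0.09 and -0.11. Besides Kdm2b, the PRC1 genes differed from Cre- by less than 2 SE.

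The RefSeq promoter windows of GRCm38.p6, 250 bases before to 50 after a start, held 32 of the 41 genes, and Kdm6b, Kdm2a, Kdm3b, Kdm4b, Kdm5a, Kmt2b, Nsd1, Setd1b and Cbx2 had no entry. CpG is the dinucleotide on which Tet enzymes act and which Kdm2b binds when unmethylated, so it was counted (the letters CG, the same on both strands) in the window with most of it for each gene. The 32 genes had a median of 32 CpG, from 13 (Kdm4a) to 65 (Kdm7a), beside a median of 8 over the 27025 symbols of the table. At least 15 CpG were found for 31 of the 32 genes, 96.9%, and for 37.1% of all symbols, so CpG-rich starts are shared by genes of the list that were higher, lower or level in Tet tcKO. Kdm2b has windows of 28, 18, 49 and 47 CpG, and Ezh2 has 1 window. Those of Kdm2b with 18 and 47 CpG, which lie near or overlap the others, are left out. The rest are shown 5′ to 3′ in the direction of the gene, with each CpG in capitals. They belong to a CpG-binding protein and a PRC2 enzyme of the list. The windows are chr5:122989050-122989349 (minus strand, 28 CpG) and chr5:122900301-122900600 (minus strand, 49 CpG) for Kdm2b, and chr6:47594981-47595280 (minus strand, 31 CpG) for Ezh2.
Kdm2b, outer start: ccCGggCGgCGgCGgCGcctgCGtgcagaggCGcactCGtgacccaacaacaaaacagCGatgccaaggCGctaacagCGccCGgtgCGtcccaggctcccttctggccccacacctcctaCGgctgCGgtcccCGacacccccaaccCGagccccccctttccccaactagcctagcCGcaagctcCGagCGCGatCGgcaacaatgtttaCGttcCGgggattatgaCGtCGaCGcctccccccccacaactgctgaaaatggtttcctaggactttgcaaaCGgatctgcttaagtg
Kdm2b, inner start: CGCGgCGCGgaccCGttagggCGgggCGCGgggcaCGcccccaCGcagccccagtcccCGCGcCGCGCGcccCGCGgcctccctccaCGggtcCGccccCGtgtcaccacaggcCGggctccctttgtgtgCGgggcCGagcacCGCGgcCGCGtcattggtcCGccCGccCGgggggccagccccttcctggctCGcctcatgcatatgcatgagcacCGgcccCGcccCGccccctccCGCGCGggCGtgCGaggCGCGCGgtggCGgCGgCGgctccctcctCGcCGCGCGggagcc
Ezh2: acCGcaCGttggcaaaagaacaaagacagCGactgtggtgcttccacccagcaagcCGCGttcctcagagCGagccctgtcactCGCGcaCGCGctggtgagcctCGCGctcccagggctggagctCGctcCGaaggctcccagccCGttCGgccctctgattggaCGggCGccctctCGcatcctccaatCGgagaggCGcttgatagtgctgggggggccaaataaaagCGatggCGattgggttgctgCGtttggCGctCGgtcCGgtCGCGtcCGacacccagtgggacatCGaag

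Among the lysine 4 methyltransferases, the 4 MLL genes were low together in the same libraries. Kmt2a, the first MLL gene described, was at 265, 542 and 388 CPM in Cre-, 564, 566 and 368 CPM in tHet, and 343, 514 and 291 CPM in Tet tcKO. Kmt2c, which marks enhancers, was at 442, 690 and 538 CPM in Cre-, 724, 862 and 490 CPM in tHet, and 431, 563 and 330 CPM in Tet tcKO. Kmt2d, its close paralog, was at 314, 501 and 438 CPM in Cre-, 618, 555 and 454 CPM in tHet, and 361, 467 and 275 CPM in Tet tcKO. Library 1 of Cre-, library 3 of tHet and library 3 of Tet tcKO were the lowest of their genotype in all 4 genes, and the genotypes overlapped. Without CT010467.1 in the totals, the lowest Tet tcKO value of all 4 genes was in library 1 (for Kmt2c 431 CPM, against 463 CPM in library 3). As a share of the summed CPM of the 41 genes, Kmt2c was 7.47% to 8.84% in Tet tcKO, below the 9.46% to 12.2% of the controls. Versus tHet the log2FC was -0.64 ± 0.28 (SE) for Kmt2c (adjusted p = 0.21) and -0.58 ± 0.26 for Kmt2d (adjusted p = 0.23). Versus Cre- it was -0.34 and -0.19. Kmt2b had -0.28 versus tHet and 0.01 versus Cre-, and the SET1 enzymes Setd1a and Setd1b, which deposit most lysine 4 tri-methylation, stayed between -0.01 and 0.11 in both comparisons.

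These low libraries were low for the list as a whole. Cre- library 1 held the lowest Cre- value of 34 of the 41 genes and tHet library 3 the lowest tHet value of 35. The median deviation of the 41 genes from their genotype mean was -0.20 in Cre- library 1, -0.25 in tHet library 3 and -0.30 in Tet tcKO library 3 on the log2 scale, beside -0.12, -0.17 and -0.29 over all genes tested. For the 20 genes with more than the median exon length of 6.90 kb it was -0.24, -0.31 and -0.34, and for the other 21 genes it was -0.13, -0.20 and -0.28, so the longer genes lay lower in all 3 libraries. Whether RNA quality has a part in this was not tested. The summed CPM of the list was 4312 to 6365 in Tet tcKO and 4667 to 7095 in the controls.

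**Figure D5:**
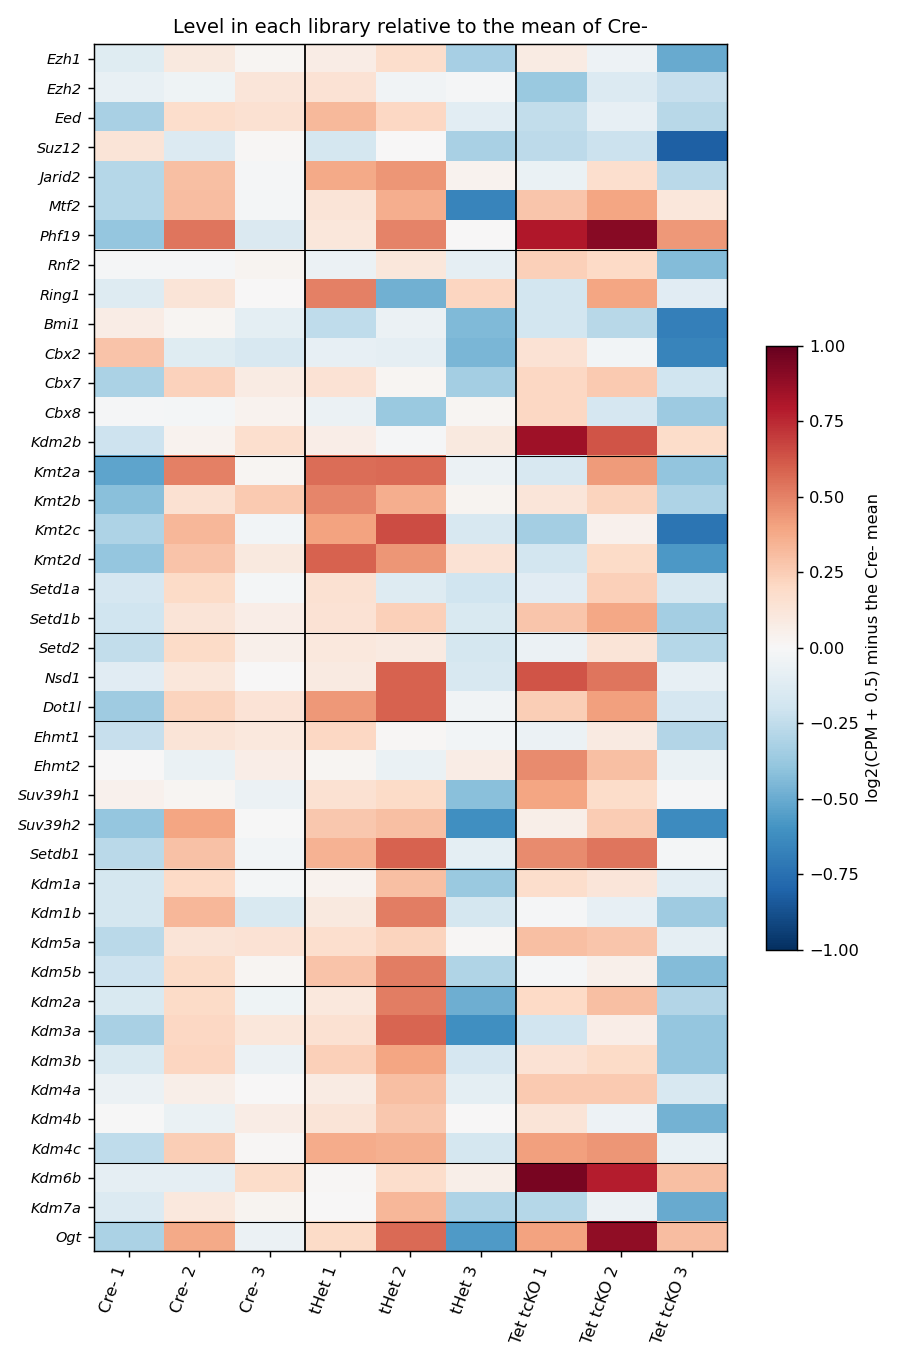
Log2(CPM + 0.5) of each of the 41 genes in each library, minus the mean of the Cre- libraries, with rows grouped by role. Columns Cre- 1, tHet 3 and Tet tcKO 3 are blue for most rows, and Kdm6b, Kdm2b, Phf19, Ogt and, more faintly, Mtf2 are red in all Tet tcKO columns.

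The enzymes of lysines 36 and 79 had no call in any fit. Nsd1, a lysine 36 di-methyltransferase, was at 408, 480 and 443 CPM in Cre-, 471, 667 and 397 CPM in tHet, and 685, 643 and 417 CPM in Tet tcKO, with overlap and a log2FC of 0.36 ± 0.26 (SE) versus Cre- (adjusted p = 0.61). It was 0.52 ± 0.18 with CT010467.1 left out (limma adjusted p = 0.099), and as a share of the summed CPM of the 41 genes Nsd1 was 9.68% to 11.9% in Tet tcKO and 7.32% to 9.40% in the controls. Setd2, which tri-methylates lysine 36, had -0.07, and Dot1l had 0.16. The lysine 9 enzymes ran from -0.11 (Suv39h2) to 0.33 (Setdb1) versus Cre-. Ehmt2 (G9a) was at 105, 92.8 and 72.1 CPM in Tet tcKO and 71.8 to 79.5 CPM in the controls, with library 3 inside their range and the other Tet tcKO libraries above it (log2FC 0.24 ± 0.20 SE, adjusted p = 0.72). With CT010467.1 left out, Ehmt2 was at 92.9 to 105 CPM in Tet tcKO and 71.8 to 82.6 CPM in the controls. Its log2FC was then 0.40 ± 0.12 versus Cre- (limma adjusted p = 0.058) and 0.37 ± 0.12 versus tHet (adjusted p = 0.082). Its partner Ehmt1 had -0.09, and Suv39h1, which marks pericentric heterochromatin, had 0.19.

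The other demethylases overlapped the controls as deposited, with no call in any fit. The lysine 4 demethylases ran from -0.15 (Kdm1b) to 0.16 (Kdm5a) versus Cre- and from -0.30 (Kdm5b) to 0.07 (Kdm1a) versus tHet. Kdm1a (LSD1), known for its part in rod chromatin, was at 63.3 to 77.0 CPM in Tet tcKO and 52.6 to 84.2 CPM in the controls. Of the lysine 9 and 36 demethylases other than Kdm2b, Kdm3a had the lowest log2FC versus Cre- (-0.17) and Kdm4c the highest (0.26). Kdm4c was at 375, 383 and 268 CPM in Tet tcKO and 237 to 366 CPM in the controls. With CT010467.1 left out of the totals, its Tet tcKO library 3 was at 376 CPM, and every Tet tcKO library lay above the controls (260 to 367 CPM in tHet, 237 to 334 CPM in Cre-), with a log2FC of 0.42 ± 0.17 (SE) versus Cre- and a limma adjusted p of 0.16. Kdm5a then separated too, at 225 to 245 CPM in Tet tcKO and 154 to 217 CPM in the controls (0.32 ± 0.14, limma adjusted p = 0.19). Kdm2a, Kdm3b, Kdm4a and Kdm4b lay between these values.

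Ogt adds N-acetylglucosamine to nuclear proteins, Tet enzymes among them. It was at 121, 195 and 144 CPM in Cre-, 172, 224 and 102 CPM in tHet, and 199, 279 and 186 CPM in Tet tcKO, with overlap (log2FC 0.53 ± 0.27 SE, adjusted p = 0.36, and 0.47 ± 0.27, adjusted p = 0.41). Ogt is X-linked, and the libraries differed in Xist, the transcript of the inactive X. Xist was at 1.24 CPM in Cre- library 1, 2.42 in tHet library 3 and 5.28 in Tet tcKO library 1, and at 647 to 1272 CPM in the other 6. The Xist-poor Cre- and tHet libraries held the lowest Ogt value of their genotype. They also held the lowest value of 34 and 35 genes of the list, so this was not particular to Ogt. With CT010467.1 left out, Ogt was at 199 CPM in Tet tcKO library 1 and 279 and 261 CPM in the others. The other X-linked gene, Suv39h1, was highest of Cre- in library 1 (12.2 CPM) and lowest of tHet in library 3 (8.76 CPM). The part of the Xist difference in the Ogt result was not tested. The ratio of Ogt to Oga, the enzyme that removes the sugar, was 0.513 to 0.686 in Tet tcKO and 0.311 to 0.638 in the controls.

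Other genes of the same machinery were taken from a wider list of 95 names, of which 91 passed the filter. With limma 1 rose and 1 fell in Tet tcKO versus Cre- at an adjusted p under 0.05, and 1 rose and 0 fell versus tHet. Of all genes 6.50% and 5.95% were called. In each comparison 9 of the 91 had an unadjusted p under 0.05, beside 16.1% and 17.5% of all genes. In edgeR 3 were higher and 1 lower versus Cre- and 4 and 1 versus tHet, where 8.99% and 7.84% of all genes were called. In DESeq2 it was 4 and 2 versus Cre- and 5 and 2 versus tHet (11.6% and 11.1% of all genes). With CT010467.1 left out, limma called 10 higher and 1 lower versus Cre- and 11 higher and 0 lower versus tHet (10.2% and 8.90% of all genes). With values as deposited, the median log2FC of the 91 genes was 0.08 versus Cre- and 0.06 versus tHet. Over all genes tested it was 0.00 and -0.06. The gene that rose in both comparisons in that fit was Prmt8, an arginine methyltransferase of the nervous system, at 25.4, 25.6 and 26.0 CPM in Cre-, 22.5, 27.4 and 28.4 CPM in tHet, and 76.9, 68.9 and 52.3 CPM in Tet tcKO. Its groups did not overlap, and it rose by a log2FC of 1.33 ± 0.22 (SE) versus Cre- (adjusted p = 0.00045) and 1.31 ± 0.22 versus tHet (adjusted p = 0.0006). Smyd4, a SET and MYND domain protein named after its values were seen, fell by a log2FC of 0.92 versus Cre- (limma adjusted p = 0.019) and had -0.64 versus tHet (adjusted p = 0.13), where edgeR and DESeq2 called it as lower.

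The other PRC1 and PR-DUB subunits, 23 tested, had a median log2FC of 0.17 versus Cre- and 0.13 versus tHet, with 0 called by limma, beside 6.50% and 5.95% of all genes, and 3 and 1 at an unadjusted p under 0.05, beside 16.1% and 17.5%. Among the 23, 3 were called as higher in both comparisons with CT010467.1 left out (Bcor, Pcgf2 and the chromodomain protein Cbx6), and 10 and 8 had an unadjusted p under 0.05, beside 23.2% and 24.3% of all genes. Bcor, the corepressor that shares its variant PRC1 with Kdm2b, and Pcgf2, a ring-finger subunit, were named after their values were seen. Bcor was at 74.5, 82.5 and 75.7 CPM in Cre-, 75.5, 101 and 68.6 CPM in tHet, and 144, 131 and 97.6 CPM in Tet tcKO, and only Tet tcKO library 3 lay within the controls (log2FC 0.66 ± 0.22 SE versus Cre-, limma adjusted p = 0.083). Bcor was called as higher in both comparisons by edgeR, by DESeq2 and by limma with CT010467.1 left out. Pcgf2 had a log2FC of 0.57 ± 0.23 (limma adjusted p = 0.20) and was called versus Cre- in the same 3 fits. Pcgf1, the ring-finger subunit of the complex that holds Kdm2b and Bcor, was at 6.13 to 7.17 CPM in Tet tcKO and 6.24 to 7.92 CPM in the controls. The 12 tested subunits of MLL and SET1 complexes had a median log2FC of 0.04 versus Cre-, with 0 called by limma, edgeR or DESeq2 in either comparison. At an unadjusted p under 0.05 limma gave 0 in both, beside 16.1% and 17.5% of all genes. By that rule edgeR and DESeq2 gave 3 each versus tHet, beside 22.3% and 22.1% of all genes. With CT010467.1 left out, Hcfc1, Psip1 and Wdr82, 3 of the 12, were called as higher versus tHet, where 8.90% of all genes were called. Versus Cre- 0 of the 12 were called in that fit, beside 10.2% of all genes. At an unadjusted p under 0.05 that fit gave 4 of the 12 in each comparison, beside 23.2% and 24.3% of all genes.

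Between tHet and Cre- the 41 genes had log2FC from -0.25 (Bmi1) to 0.39 (Kmt2d) with a median of 0.06, as over all genes, and the lowest adjusted p was 1.00. All 41 intervals lay between -1 and 1. Kdm6b differed by 0.08 and Kdm2b by 0.05, both less than 1 SE.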

How the data were processed

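Per the labels and the methods, the authors depleted ribosomal RNA from whole-retina RNA, made stranded libraries (SMARTer) and sequenced 9 of them in 1 pool. They trimmed reads with Trim Galore 0.6.7, aligned them to mm10 with STAR 2.7.0f and counted them per gene with HTSeq 0.11.2. The strand setting and annotation release of the counting are not given in the sources used here. The authors deposited CPM per gene, scaled to the plain library total. Their fold changes, p-values, calls and group averages, in the same table, were not used.

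CPM steps gave whole reads for 100% of values (tolerance 0.1 reads), and reads on genes numbered 9627927 to 21108256 per library. Of the 55487 gene IDs, 54349 matched GENCODE M21 (GRCm38) with their version, which gave positions, exon lengths and overlaps.

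Genes at 0.5 CPM or more in at least 3 libraries (21330) were fitted with limma 3.58.1 (R 4.3.3, trend) on log2(CPM + 0.5) over all 9 libraries, with p-values adjusted by Benjamini-Hochberg over all of them. Fold changes on this scale understate those of low genes. A 3 against 3 exact permutation test cannot go below p = 0.1 and was not used. Alternatives were other pseudocounts (0.1, 1) and filters (none, 1 CPM), upper-quartile (75th percentile) and TMM scaling, edgeR 4.0.16 and DESeq2 1.42.0 on recovered reads, the replicate number as a block, 6 libraries only, and leaving out each library. Leaving CT010467.1 out was added after seeing the data. The scripts were tested on simulated data.

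The 41 genes, the other lists and the tests were chosen with earlier results of these data known. Values by library are given for each of the 41 genes with an adjusted p under 0.05 in a comparison and for those whose Tet tcKO libraries all lie beyond the 6 controls. From the wider list, genes called in both Tet tcKO comparisons are named, with Tet1, Tet2 and Tet3 as a check of the labels. Other genes given by library (Suz12, Bmi1, Kmt2a, Kmt2c, Kmt2d, Nsd1, Ehmt2, Kdm4c, Kdm7a, Ogt and those of the closing section) were chosen after their values were seen. Figures were drawn with matplotlib 3.10.9.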

Additional observations from a re-analysis of the deposited data

How the results depend on the processing

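With values as deposited, no gene of the 41 was called. With the stricter rule (adjusted p under 0.01, log2FC of 1 or more in size) the count stayed 0 in all 3 comparisons under all 20 alternatives. At an adjusted p under 0.05 it became 2 (Kdm2b and Kdm6b), 4.88% of the list, in both Tet tcKO comparisons under some alternatives. These were upper-quartile scaling (9.37% and 8.45% of all genes called) and TMM scaling in limma (9.24% and 8.50%). The others were edgeR's quasi-likelihood test (8.99% and 7.84%) and CT010467.1 left out (10.2% and 8.90%). With DESeq2 it was 2 and 4 (also Kmt2c and Kmt2d), beside 11.6% and 11.1% of all genes. Leaving out 1 library at a time gave 0 to 2 in both, and the library behind every 2 was Tet tcKO replicate 3. Without it, 6.47% and 5.57% of all genes were called. The other pseudocounts, the other filters and the fits of 6 libraries gave 0, beside 2.07% to 7.62% of all genes in the Tet tcKO comparisons. The comparison of tHet versus Cre- gave 0 throughout. The replicate block gave 1 (Kdm6b) versus Cre- and 0 versus tHet, where 9.65% and 10.2% of all genes were called. Same-numbered libraries of different genotypes come from different animals, so the numbers were not taken as a pairing. Such libraries correlated in their deviations by -0.35 to 0.56, with 5 of 9 pairs over 0.1. Those of different numbers correlated by -0.57 to 0.50, with 7 of 18 pairs over 0.1. The median log2FC of the 41 genes ranged over the alternatives from -0.12 to 0.15 versus Cre-, from -0.18 to 0.12 versus tHet and from -0.01 to 0.20 between tHet and Cre-, within 1 SD of the spread between libraries. Kdm6b stayed higher in Tet tcKO throughout (0.54 to 0.87 versus Cre- and 0.46 to 0.78 versus tHet), as did Kdm2b (0.40 to 0.74 and 0.35 to 0.69), and Ezh2 stayed lower (-0.30 to -0.08 and -0.33 to -0.14). Between tHet and Cre- the small difference of Ezh2 changed sign with TMM scaling (-0.026), edgeR (-0.021), DESeq2 (-0.025) and without Cre- replicate 1 (-0.0051) or tHet replicate 1 (-0.026), with a range of -0.026 to 0.091 when libraries were left out. That of Kdm2b changed sign with TMM scaling (-0.0077) and without Cre- replicate 1 (-0.052), with a range of -0.052 to 0.13. The cause of these changes was not tested. At these depths 3 reads are 0.142 to 0.312 CPM, under the level of every gene of the list in every library.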

Other observations

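The sex-linked demethylases, which are not in the list of 41, differed between libraries of the same genotype. Xist was low in Cre- library 1, tHet library 3 and Tet tcKO library 1 (1.24, 2.42 and 5.28 CPM). In those libraries the X-linked lysine 27 demethylase Kdm6a was at 43.4, 42.3 and 57.1 CPM, and in the other 6 it was at 68.1 to 110 CPM. The X-linked lysine 4 demethylase Kdm5c was at 122, 146 and 112 CPM in the former and 118 to 240 CPM in the latter. The Y-linked partners Kdm5d and Uty were at 0.432 and 0.648 CPM in tHet library 1 and at 3.85 and 5.30 CPM in Tet tcKO library 3, against 22.7 to 66.7 and 31.7 to 73.3 CPM elsewhere. The ratio of Kdm6b to Kdm6a overlapped between genotypes, at 1.01 to 1.90 in Tet tcKO and 0.534 to 1.38 in the controls, unlike the ratio of Kdm6b to Kdm7a.

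The HP1 proteins that bind methylated lysine 9 had log2FC of 0.30 (Cbx1), 0.22 (Cbx3) and 0.45 (Cbx5) versus Cre- and 0.33, 0.48 and 0.50 versus tHet, none with a limma adjusted p under 0.05. Cbx5 was at 304, 257 and 183 CPM in Tet tcKO and 157 to 197 CPM in the controls. The corepressor Trim28 was at 107, 80.7 and 60.0 CPM in Tet tcKO and 50.3 to 67.2 CPM in the controls. As for Kdm6b and Kdm2b, the lowest Tet tcKO value of both was in library 3, the library in which CT010467.1 took 28.7% of the reads. With that gene left out of the totals, limma called Cbx5 and Trim28 as higher in both comparisons, 2 of the 7 tested genes of their list, where 10.2% and 8.90% of all genes were called. In edgeR and DESeq2 both were called as higher versus tHet and not versus Cre-. These genes were named after their values were seen.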
